A study of Mus musculus with 12 samples.

Results

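The genes described here are 10 factors and targets of the fat cell differentiation program, chosen by name from the 21300 gene symbols on the arrays: the CCAAT/enhancer binding proteins *Cebpa*, *Cebpb* and *Cebpd*, the peroxisome proliferator-activated receptors *Pparg*, *Ppara* and *Ppard*, the coactivator *Ppargc1a*, and the lipid uptake genes *Fabp4*, *Lpl* and *Cd36*. They were represented by 17 probes. Gene expression was measured in C57MG, a mouse mammary epithelial cell line, after 24 h in culture with recombinant human Rspo2 at 100 ng/ml, recombinant mouse Wnt3a at 100 ng/ml, both proteins together, or bovine serum albumin (BSA), the protein carrier, as the control. Rspo2 is a secreted R-spondin that strengthens signalling by Wnt proteins, and Wnt3a is a Wnt ligand that acts through β-catenin. Each condition was tested in 3 monolayers, each hybridised to its own single-color array, so that 12 arrays were compared. All samples are cultures of this line, and none of the groups carried a genetic change.

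In the textbook account of adipogenesis, *Cebpb* and *Cebpd* are switched on first and induce *Cebpa* and *Pparg*, which then maintain each other and turn on genes for lipid uptake and storage. Canonical Wnt signaling is known to keep preadipocytes undifferentiated, with low *Pparg* and *Cebpa*. Outside fat the same factors have other roles: *Cebpb* is needed for normal growth of the mammary ducts and alveoli, *Cebpd* takes part in the acute phase response and in mammary involution, and *Ppard* and *Ppargc1a* are linked to fatty acid oxidation and mitochondrial function.

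Promoter sequences are shown for the 3 genes among them with a called probe and an entry in the RefSeq promoter table (GRCm38.p6), in which 7 of the 10 genes were matched. *Cebpb* and *Ppargc1a* were lower with Rspo2 plus Wnt3a than with BSA, and *Ppard* differed between the combination and Wnt3a alone. The 250 bases upstream of each start site read as follows, 5′ to 3′ along the gene. Capitals mark the letters TGACG, the core of the cAMP response element, or CGTCA where that core lies on the other strand, and in *Ppard* the letters TCAAAG, the core of the TCF/LEF element through which β-catenin acts. The latter was also searched on the other strand, where it reads CTTTGA.
Cebpb, chr2:167688665-167688914, plus strand: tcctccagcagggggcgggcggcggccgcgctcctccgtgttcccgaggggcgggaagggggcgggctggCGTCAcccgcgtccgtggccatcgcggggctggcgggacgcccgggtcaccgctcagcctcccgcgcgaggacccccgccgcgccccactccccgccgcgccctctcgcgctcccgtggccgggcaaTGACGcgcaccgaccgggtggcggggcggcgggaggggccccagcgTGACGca
Ppargc1a, chr5:51567726-51567975, minus strand: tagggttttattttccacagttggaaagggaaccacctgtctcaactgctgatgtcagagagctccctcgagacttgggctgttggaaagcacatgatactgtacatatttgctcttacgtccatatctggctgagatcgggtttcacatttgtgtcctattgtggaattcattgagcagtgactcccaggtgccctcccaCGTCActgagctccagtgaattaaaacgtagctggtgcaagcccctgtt
Ppard, chr17:28232504-28232753, plus strand: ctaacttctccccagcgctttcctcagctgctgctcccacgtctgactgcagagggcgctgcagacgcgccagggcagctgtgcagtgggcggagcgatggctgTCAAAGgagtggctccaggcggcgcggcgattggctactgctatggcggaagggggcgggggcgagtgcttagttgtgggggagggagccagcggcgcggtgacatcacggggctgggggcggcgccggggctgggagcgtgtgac
The *Cebpb* window held TGACG at 3 places, beginning 180, 53 and 7 bases before the start site, and the *Ppargc1a* window held it at 1, beginning 49 bases before the start. The *Ppard* window held no TGACG and had TCAAAG 146 bases before the start. Of the 32851 promoter windows in the table, 17.8% held TGACG and 13.8% held TCAAAG on either strand, so that neither is rare, and a match describes letters, not binding. *Cebpd*, *Fabp4* and *Lpl* are named only.

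A probe counted as detected if the scanner software scored it well above background in each of the 3 replicates of some condition. Of the 41174 probes 22750 were detected, and between 51.28% and 64.15% of all probes passed that score on an array. No spot was saturated. Of the 12 mammary epithelial marker genes examined, 5 were detected, and *Krt18*, *Krt19*, *Epcam* and *Cdh1* were not, whereas 9 of 10 fibroblast markers were detected. The summed level of the epithelial markers, in units of the array's 75th percentile, was 10.5 to 10.9 (BSA), 10 to 12.5 (Rspo2), 15.5 to 17.1 (Wnt3a) and 22.8 to 26.1 (combination), but *Krt14* made up 93.8% to 98.2% of it and the list's median difference between the combination and BSA was 0.08. The fibroblast sum was 567 to 574, 574 to 661, 610 to 666 and 589 to 612 in the same order, with 48.8% to 60.9% of it from *S100a4* and a median difference of −0.32 with the combination. Their part in the results was not tested. The arrays lay on 3 slides. The BSA arrays and Rspo2 replicate 1 shared slide 1, Rspo2 replicates 2 and 3 and Wnt3a replicates 1 and 2 shared slide 2, and Wnt3a replicate 3 and the 3 combination arrays shared slide 3. No slide therefore held BSA beside Wnt3a or the combination. For the 10 genes and the adipogenic gene lists, values with slide in the fit are given beside calls that they ended. Calls of the other cell type markers were not refitted with slide.

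Of the 10 genes, 6 were detected, through 9 probes, and 8 of these 9 probes were above background everywhere, on 12 of 12 arrays. *Ppard* was detected only through the combination arrays, so its difference from the other groups is partly set by that filter. *Cebpa*, *Ppara*, *Lpl* and *Cd36* were not detected in any condition, and no fold change is given for them. Levels are given as log2 of the background-subtracted signal over the array's own 75th percentile, and differences between groups on the same log2 scale. A probe was called changed if its adjusted p (limma, Benjamini-Hochberg over all 22750 probes) was under 0.05 and the change was at least 2-fold.

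The combination of Rspo2 and Wnt3a lowered 3 of the 9 detected probes by this criterion, those for *Cebpd*, *Cebpb* (probe 2) and *Ppargc1a* (probe 1), while 5.08% of all detected probes were called in that comparison and 3.79% were called lower. With the adjusted p alone 7 of the 9 passed, against 39.2% of all probes; all 7 were lower, against 17.3%. The median difference of the 9 probes from BSA was −0.84, and that of all detected probes was 0.04. With Wnt3a alone the only called probe was that of *Ppard*, lower (1 of the 9, where 2.52% of all probes were called). By adjusted p alone 4 passed, *Ppard* among them and all lower, against 31.5% of all probes in either direction and 13.2% lower. Rspo2 alone changed 0 of the 9, where 0.721% of all probes were called by limma. By adjusted p alone 2 of the 9 passed, against 16.8%, and the methods' t-test called 0 as well. An unadjusted p under 0.05 in limma was found for 4 of the 9 and for 7954 of all 22750 detected probes. Between the combination and Wnt3a alone the only called probe was again that of *Ppard*, higher (1 of the 9, where 0.747% of all probes were called), and 5 passed by adjusted p alone, against 4.27%. The interaction is the part of the joint change that the separate changes do not add up to. It passed both criteria for the 3 *Fabp4* probes and for *Ppard*, where 1.93% of all probes were called, and 5 of the 9 passed by adjusted p alone, against 8.9%. The *Ppard* calls cannot be read against these shares, because that probe entered the test through the combination arrays and had no Wnt3a array above background. Among the 8 probes above background on every array, 0 were called with Rspo2, 0 with Wnt3a, 3 with both against BSA, 0 with both against Wnt3a and 3 in the interaction. In that order 4, 4, 7, 7 and 5 of them had an unadjusted p under 0.05 in limma. With dim probes included, 4, 5, 7, 8 and 6 of the 9 detected probes did, beside 7954, 9792, 10905, 4196 and 6658 of all 22750. Of the 20407 probes above background on every array, 0.23%, 1.39%, 3.85%, 0.461% and 1.1% were called in the same order. These comparisons share arrays, the 3 against BSA having the same controls.

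**Figure D1:**
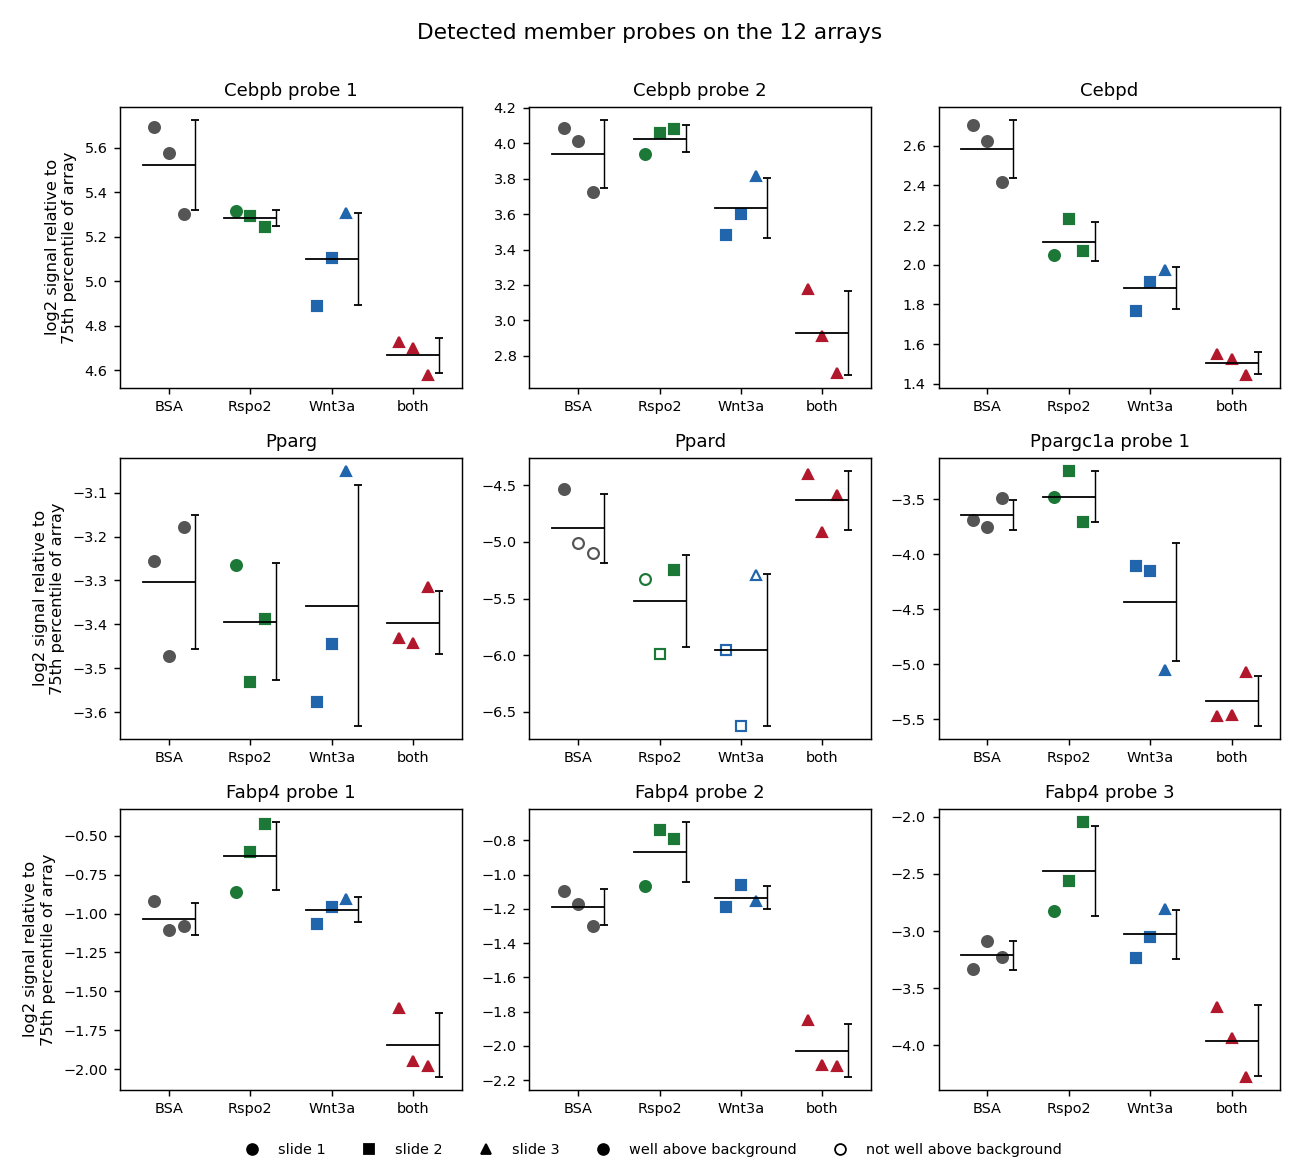
Level of each detected probe on each of the 12 arrays (y axis, log2 signal over the array's 75th percentile; x axis, BSA, Rspo2, Wnt3a and both), with points for arrays, bars for the group mean and SD, and marks for the slide and for arrays not well above background. The *Cebpd* levels are highest under BSA (2.42 to 2.71) and lowest under both proteins (1.44 to 1.55), the *Fabp4* probes are lowest with both and highest with Rspo2 alone, and *Pparg* lies near −3.4 in all groups.

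Among the C/EBP factors, *Cebpd*, an early activator of the cascade, had the most regular pattern. Its log2 level was 2.71, 2.63 and 2.42 on the BSA arrays, 2.05, 2.23 and 2.07 with Rspo2, 1.77, 1.91 and 1.97 with Wnt3a, and 1.55, 1.52 and 1.44 with both. Every treated array lay below every BSA array, and the combination arrays were the lowest of the 12. Of the treated arrays only Rspo2 replicate 1 shared the slide of the BSA arrays. The difference from BSA was −0.47 ± 0.10 (SE, n = 3 per group; adjusted p = 0.0175, limma) with Rspo2 and −0.70 (adjusted p = 0.000909) with Wnt3a, each less than 2-fold. With slide as a term these were −0.53 (adjusted p = 0.157) and −0.85 (adjusted p = 0.0813). With normexp background correction they were −0.52 (adjusted p = 0.398) and −0.59 (adjusted p = 0.0983). With both proteins *Cebpd* fell by 1.08 on the log2 scale, 2.11-fold (adjusted p = 1.73e-05). The combination lay below Wnt3a alone by −0.38 (adjusted p = 0.0525), and the interaction was 0.09 ± 0.13 (adjusted p = 0.691). The call with both proteins against BSA held in all 26 other settings tried, with adjusted p of 2.19e-06 to 0.034.

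*Cebpb*, which acts beside *Cebpd* at the start of the cascade, was read by 2 probes. Probe 1 gave 5.69, 5.58 and 5.30 with BSA, 5.31, 5.29 and 5.24 with Rspo2, 4.89, 5.10 and 5.31 with Wnt3a, and 4.73, 4.70 and 4.58 with both. Probe 2 gave 4.09, 4.01 and 3.72 with BSA, 3.94, 4.06 and 4.08 with Rspo2, 3.48, 3.60 and 3.82 with Wnt3a, and 3.18, 2.91 and 2.70 with both. On both probes the combination arrays lay below the other 9, whereas the Rspo2 and Wnt3a arrays overlapped those with BSA. Probe 2 fell by 1.01 on the log2 scale with both proteins, 2.02-fold (SE 0.14, adjusted p = 0.000337), and probe 1 differed by −0.86 ± 0.12, 1.81-fold (adjusted p = 0.000412), so the probes lie on either side of the 2-fold limit. Rspo2 alone gave −0.24 (adjusted p = 0.184) on probe 1 and 0.09 (adjusted p = 0.693) on probe 2, and Wnt3a alone gave −0.42 (adjusted p = 0.0224) and −0.31 (adjusted p = 0.114). The separate treatments thus stayed under 2-fold on both probes. Against Wnt3a alone the combination differed by −0.43 (adjusted p = 0.0804) on probe 1 and by −0.70 (adjusted p = 0.0167) on probe 2, and the interaction on probe 2 was −0.79 ± 0.20 (adjusted p = 0.0362), under 2-fold. The call of probe 2 against BSA was lost without BSA replicate 1 (−0.94), BSA replicate 2 (−0.98) or combination replicate 3 (−0.90), when the change was under 2-fold. With slide as a term it was −1.42 (adjusted p = 0.0567). Within slide 3 the 3 combination arrays lay below the Wnt3a array by −0.64 on probe 1, −0.89 on probe 2 and, for *Cebpd*, −0.47.

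*Cebpa*, which with *Pparg* holds the differentiated state, was close to the background throughout. Probe 1 was well above background on 2 arrays, BSA replicate 1 at an intensity of 38.76 and combination replicate 1 at 23.45, and probe 2 on none, with intensities of 3.199 to 9.781. The plot of undetected probes shows these arrays. The other C/EBP genes on the array, *Cebpg*, *Cebpz* and *Ddit3*, were detected, and none of the 3 was called in any of the 5 comparisons.

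**Figure D2:**
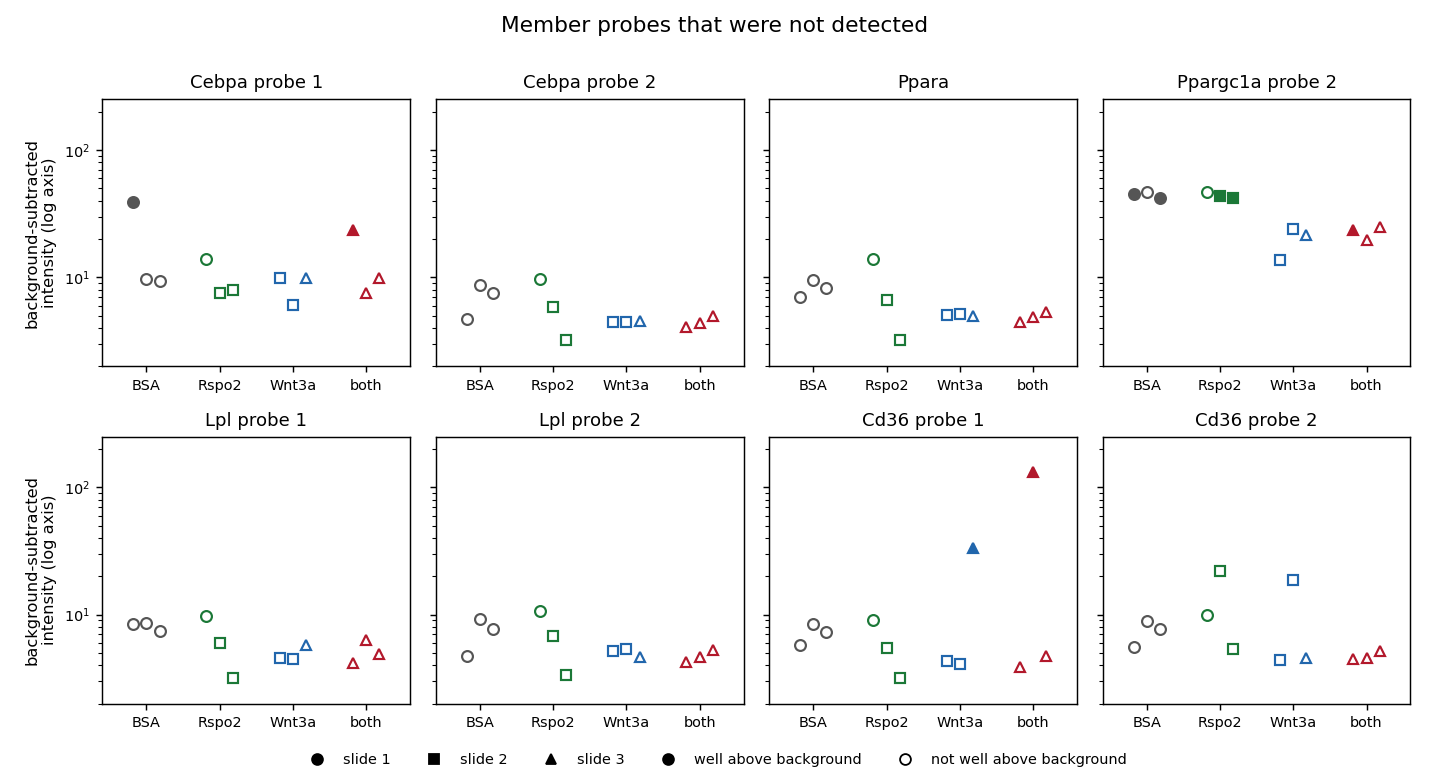
Background-subtracted intensity (y axis, log scale) of the 8 member probes that were not detected on each of the 12 arrays, by condition on the x axis, with filled marks where the spot was well above background. *Ppara*, *Lpl* and the second probes of *Cebpa* and *Cd36* have no filled mark, and *Cd36* probe 1 has 2, at 33.55 and 130.8.

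Of the PPAR receptors, which bind fatty acids and act with retinoid X receptors, *Pparg*, the receptor required for fat cell formation, was detected in every condition and differed in none. It was spotted 10 times per array, and 7 to 10 of these spots were well above background. The levels were −3.26, −3.47 and −3.18 with BSA, −3.26, −3.53 and −3.39 with Rspo2, −3.58, −3.45 and −3.05 with Wnt3a, and −3.43, −3.44 and −3.31 with both. The 4 groups overlapped. The difference from BSA was −0.09 with Rspo2 (adjusted p = 0.666, 95% confidence interval −0.39 to 0.21), −0.05 with Wnt3a (adjusted p = 0.789, interval −0.35 to 0.24) and −0.09 with both (adjusted p = 0.623, interval −0.39 to 0.21). In this fit, which has no slide term, a 2-fold change in either direction lies outside each interval. With slide as a term the differences were 0.04, −0.01 and −0.36, and with normexp background correction 0.42, −0.24 and −0.33, none of them called. The probe was dim, with intensities of 71.06 to 119.3. The interaction was 0.05 ± 0.19 (adjusted p = 0.884).

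*Ppard*, the most widely expressed of the receptors, was dim, with intensities of 7.849 to 44.69. Its levels were −4.53, −5.01 and −5.10 with BSA, −5.33, −5.99 and −5.24 with Rspo2, −5.95, −6.62 and −5.29 with Wnt3a, and −4.40, −4.91 and −4.59 with both. It was well above background on 1 of 3 BSA arrays, 1 of 3 Rspo2 arrays, none of the Wnt3a arrays and all 3 combination arrays. The Wnt3a arrays lay below the BSA and the combination arrays, which overlapped each other. Because no Wnt3a array was above background, the level there is a bound. The measured difference of *Ppard* with Wnt3a against BSA was −1.07 ± 0.32 (adjusted p = 0.0251). Only 1 of 3 BSA arrays was above background, so no bound is given for that fold. *Ppard* was higher by a factor of at least 1.63 in the combination than in the Wnt3a group (adjusted p = 0.0406, measured difference 1.32). The fitted interaction of 1.96 ± 0.45 (adjusted p = 0.027) rests on that undetected Wnt3a level and is not a measured size. Without Wnt3a the difference for Rspo2 was −0.64 (adjusted p = 0.175). The call for Wnt3a held in 13 of 25 other settings, that for the combination against Wnt3a in 7 of 25 and the interaction in 10 of 22. With normexp background correction the interaction was −0.52 (adjusted p = 0.914), and with slide as a term 1.10 (adjusted p = 0.321). Slide as a term also ended the call for Wnt3a against BSA (−1.12, adjusted p = 0.352) and that for the combination against Wnt3a (0.66, adjusted p = 0.592). *Ppara*, the receptor that drives fatty acid oxidation in liver, was spotted 10 times and was not above background on any array.

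*Ppargc1a* encodes a coactivator of PPARγ and of other nuclear receptors and promotes mitochondrial biogenesis. Probe 1 passed the background score on every array, with levels of −3.68, −3.75 and −3.49 with BSA, −3.48, −3.24 and −3.71 with Rspo2, −4.11, −4.15 and −5.05 with Wnt3a, and −5.47, −5.46 and −5.07 with both. The BSA and Rspo2 arrays overlapped, the Wnt3a arrays were lower than either, and the combination arrays were the lowest, with Wnt3a replicate 3 next to them. *Ppargc1a* fell by 1.69 on the log2 scale with both proteins, 3.23-fold (SE 0.23, adjusted p = 0.00035, 95% confidence interval −2.21 to −1.18), the largest change among the 9 probes in the comparisons with BSA. The probe was dim, with intensities of 73.97 to 96.35 with BSA and 21.23 to 31.54 with both. With Wnt3a alone the difference was −0.79, 1.73-fold (adjusted p = 0.0252), and with Rspo2 alone 0.16 (adjusted p = 0.648). The combination differed from Wnt3a alone by −0.90 (adjusted p = 0.0601) and the interaction was −1.06 ± 0.33 (adjusted p = 0.0677). Wnt3a replicate 3 is the Wnt3a array on the slide of the combination. Without it the combination was called lower than Wnt3a, at −1.21 (adjusted p = 0.00272), and the interaction was called at −1.37 (adjusted p = 0.00802), whereas within that slide the difference was −0.28. The call against BSA was lost with slide as a term (−0.77, adjusted p = 0.344) and with normexp (−0.99, adjusted p = 0.278). Probe 2 was not detected: it was above background on 2 BSA, 2 Rspo2 and 1 combination array and on none with Wnt3a. Its levels were −4.39, −4.62 and −4.68 with BSA, −4.46, −4.33 and −4.24 with Rspo2, −6.05, −5.01 and −5.23 with Wnt3a, and −5.33, −5.62 and −5.41 with both, so that here too the Wnt3a and combination arrays lay below the BSA and Rspo2 arrays, without a test.

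**Figure D3:**
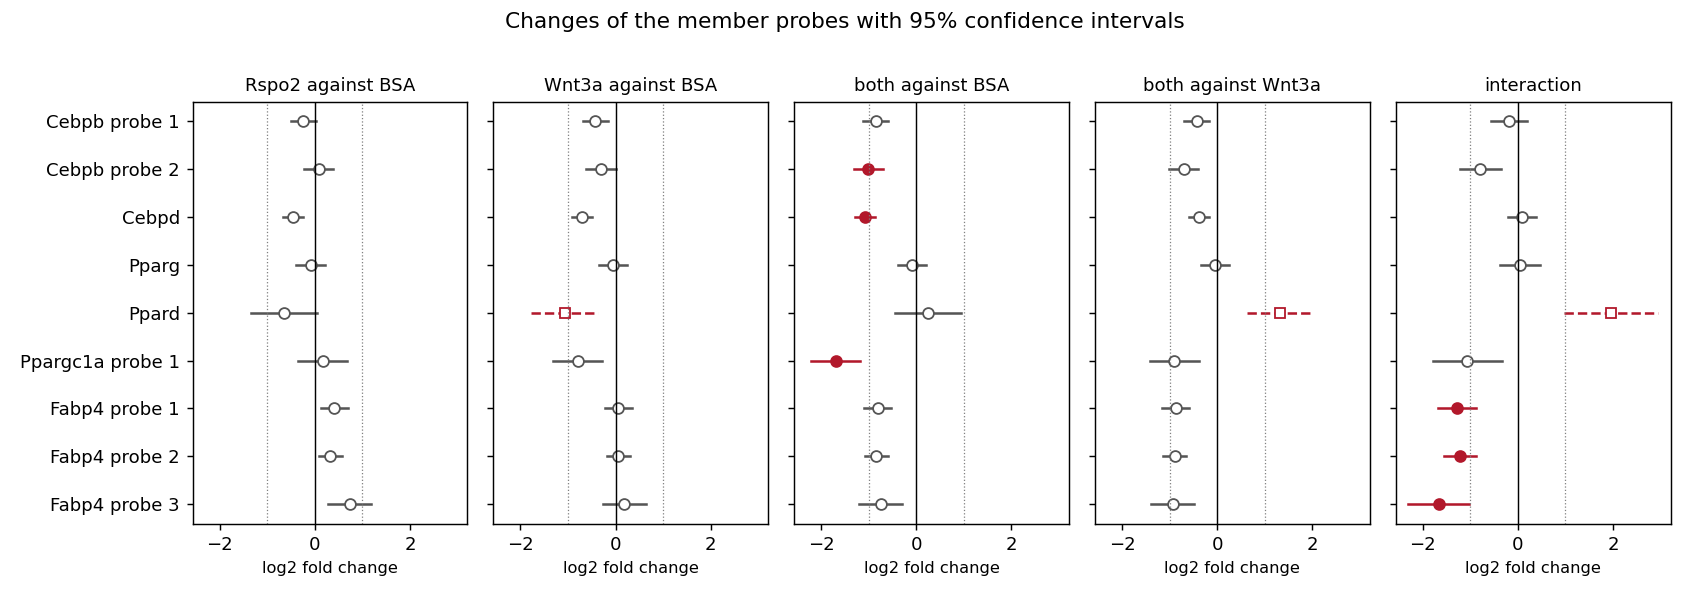
Log2 fold change of each detected probe (x axis) in the 5 comparisons (panels), with points for the estimate, bars for the 95% confidence interval filled points for probes called changed, and open squares with dashed bars for *Ppard* values that rest on Wnt3a arrays not above background. *Cebpd*, *Cebpb* probe 2 and *Ppargc1a* are called lower with both proteins against BSA, the *Fabp4* probes are called in the interaction, and *Pparg* spans 0 in every panel.

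The target genes of these factors were less uniform. *Fabp4*, the fatty acid binding protein of fat cells and macrophages and a direct target of PPARγ, was read by 3 detected probes, which gave the same order of the groups. It was lowest with both proteins, below BSA and below Wnt3a alone at an adjusted p under 0.05 on every probe, and with Rspo2 alone it lay above BSA. Probe 1 gave −0.92, −1.11 and −1.08 with BSA, −0.86, −0.60 and −0.42 with Rspo2, −1.06, −0.96 and −0.90 with Wnt3a, and −1.61, −1.95 and −1.98 with both. Probe 2 gave −1.09, −1.17 and −1.30 with BSA, −1.07, −0.74 and −0.79 with Rspo2, −1.19, −1.06 and −1.15 with Wnt3a, and −1.85, −2.11 and −2.12 with both. Probe 3 gave −3.33, −3.08 and −3.22 with BSA, −2.82, −2.56 and −2.04 with Rspo2, −3.23, −3.05 and −2.81 with Wnt3a, and −3.66, −3.94 and −4.28 with both. On all 3 probes the Rspo2 arrays lay above the BSA arrays, the Wnt3a arrays overlapped BSA, and the combination arrays lay below the other 9.

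Rspo2 alone gave a *Fabp4* difference from BSA of 0.41 ± 0.13 (adjusted p = 0.0531), 0.32 ± 0.11 (adjusted p = 0.0653) and 0.74 ± 0.21 (adjusted p = 0.037) on probes 1, 2 and 3. Wnt3a alone gave 0.06 (adjusted p = 0.752), 0.05 (adjusted p = 0.739) and 0.18 (adjusted p = 0.529). In this fit neither protein by itself gave an estimate below BSA on any of the 3 probes. With slide as a term the Wnt3a estimates were −0.32, −0.24 and −0.45, and with normexp −0.07, 0.07 and −0.12, none of them called. With both the difference from BSA was −0.81 (adjusted p = 0.000822), −0.84 (adjusted p = 0.00025) and −0.75 (adjusted p = 0.015), between 1.68-fold and 1.79-fold lower and so under the 2-fold limit. Against Wnt3a alone the combination was lower by −0.87 (adjusted p = 0.00331), −0.89 (adjusted p = 0.000994) and −0.93 (adjusted p = 0.029). The interaction was called on all 3 probes, at −1.28 ± 0.18 (adjusted p = 0.00386), −1.22 ± 0.16 (adjusted p = 0.00205) and −1.67 ± 0.29 (adjusted p = 0.0103). The Rspo2 difference was thus positive in the absence of Wnt3a and negative in its presence. On slide 1 Rspo2 replicate 1 lay above the BSA arrays by 0.18, 0.12 and 0.39, and on slide 3 the combination lay below the Wnt3a array by −0.94, −0.87 and −1.15. With slide as a term the interaction was −1.12 (adjusted p = 0.0766), −0.996 (adjusted p = 0.0664) and −1.54 (adjusted p = 0.106), no longer called, and probes 1 and 2 were called lower with both against BSA (−1.26, adjusted p = 0.0487, and −1.11, adjusted p = 0.0434). Normexp also ended the 3 interaction calls (−1.09, −1.15 and −1.36). The summed level of the macrophage markers, of which *Ptprc*, *Adgre1*, *Itgam* and *Fcgr1* were not detected, was 7.29 to 8.14 on the BSA arrays, 8.64 to 9.56 after Rspo2, 7.03 to 7.59 after Wnt3a and 4.95 to 5.45 after both, with 64.2% to 79.3% of it from *Cd14*; its part in the *Fabp4* result was not tested.

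The other lipid uptake genes were not measurable. *Lpl*, the lipase that releases fatty acids from lipoproteins, was above background on no array with either probe, with intensities up to 9.738 and 10.73. *Cd36*, a fatty acid transporter, was above background with probe 1 only on Wnt3a replicate 3 (33.55) and combination replicate 2 (130.8), while the remaining arrays of those groups were not, and probe 2 was above background on none. The adipocyte genes *Lep*, *Cfd*, *Plin1*, *Cidea*, *Cidec* and *Adrb3* were likewise not detected, and *Adipoq* was above background on 4 arrays. The summed level of the adipocyte list was 72.2 to 76.3 on the BSA arrays, 58.8 to 72.3 after Rspo2, 55 to 65.3 after Wnt3a and 45.8 to 57.9 after both, of which *Fasn* made up 40.6% to 61.7%. The median difference of the list with Rspo2 was −0.05, and none of its genes was called.

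The genes around these factors were examined as 6 lists, read by 1 detected probe per gene: 3 other C/EBP genes, 14 PPAR partners and coregulators, 15 pro-adipogenic and 16 anti-adipogenic regulators, 26 PPAR targets and 11 adipocyte genes, 85 genes in all. With both proteins 3 of the 85 were called higher and 7 lower than with BSA, beside the 5.08% called among all probes. With Wnt3a 2 were called higher and 2 lower, beside 2.52% of all probes. With Rspo2 none were higher and 2 lower, beside 0.721%, and the combination against Wnt3a called 1 higher and 2 lower, beside 0.747%. *Klf15* and *Angptl4* entered the test through the BSA arrays alone, and *Fgf21* through the Wnt3a and combination arrays. Their calls, which include all those with Rspo2, cannot be read against these shares. The PPAR partners, which include the retinoid X receptors and the nuclear receptor coactivators and corepressors, had no called gene in any comparison.

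Of the regulators that promote adipogenesis, *Klf5*, a Krüppel-like factor induced by C/EBPβ and C/EBPδ in fat precursors, changed in the direction opposite to them. Its mean level was 0.38 ± 0.19 (SD, n = 3) with BSA, 0.92 ± 0.08 with Rspo2, 1.54 ± 0.15 with Wnt3a and 2.72 ± 0.19 with both, without overlap between the groups. It rose with Wnt3a by 1.16 ± 0.13 (SE, adjusted p = 0.000257) and with both by 2.34, 5.05-fold (adjusted p = 5.66e-07). *Egr2*, an early inducer of *Cebpb*, had mean levels of −1.30 (BSA), −1.26 (Rspo2), −1.69 (Wnt3a) and −3.05 (both), and fell by 1.75 on the log2 scale with the combination (adjusted p = 6.57e-07; interaction −1.40 ± 0.14, adjusted p = 0.000465). *Klf15*, which promotes adipogenesis and glucose transport in fat cells, was above background on the BSA arrays only, so the filter partly sets its differences. It was at least 1.78-fold lower with Rspo2 (adjusted p = 0.031), at least 2.01-fold lower with Wnt3a (adjusted p = 0.0068) and at least 2.53-fold lower with both (adjusted p = 0.000152). The bound with Rspo2 is under the 2-fold limit, which only the fitted value of −1.05 passed. Of the 16 inhibitory regulators, *Twist1* rose by 1.02 with both (adjusted p = 6.61e-05), and *Sox9* fell by 1.02 on the log2 scale (adjusted p = 0.000274).

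Of the 26 PPAR target genes, *Angptl4*, a secreted inhibitor of lipoprotein lipase, was above background on the 3 BSA arrays, 1 Rspo2 array, 1 combination array and none with Wnt3a. It fell with Rspo2 by 1.21 on the log2 scale (SE 0.28, adjusted p = 0.0227) and with both by 1.62 (adjusted p = 0.00131), and was at least 3.16-fold lower with Wnt3a (adjusted p = 0.000887). It was detected through the BSA arrays alone, so the filter partly sets these differences. *Fgf21*, a metabolic hormone, was above background on all 3 Wnt3a and all 3 combination arrays and on 1 array in each of the other groups, with differences from BSA of 1.27 (adjusted p = 0.00748) and 1.24 (adjusted p = 0.00592). It was detected through the Wnt3a and combination arrays only, so the filter partly sets these differences too. The adipocyte list had a median difference of −0.29 with both proteins, against 0.04 over all probes, with 3 of its 11 genes called lower and none higher, where 3.79% of all probes were called lower and 1.28% higher. These were *Plin4*, a lipid droplet coat protein, which fell by 1.50 (SE 0.09, adjusted p = 1e-06), *Lpin1*, a phosphatidate phosphatase, which fell by 1.19 (SE 0.08, adjusted p = 1.88e-06), and *Gpd1*, which supplies glycerol phosphate and fell by 1.09 (SE 0.29, adjusted p = 0.013). *Plin4* had mean levels of 2.06, 2.01, 1.63 and 0.56 in the order BSA, Rspo2, Wnt3a and both, and its interaction was −1.02 ± 0.13 (adjusted p = 0.00172; −0.84 and adjusted p = 0.0603 with slide as a term). Of the 10 list genes called with both proteins against BSA, *Klf5*, *Egr2*, *Plin4* and *Lpin1* were also called with slide as a term, at 2.07, −1.70, −1.31 and −1.12, and with normexp. Slide as a term ended the other 6 (*Klf15* −1.48, *Sox9* −1.36, *Twist1* 0.83, *Angptl4* −2.41, *Fgf21* 0.68 and *Gpd1* −1.03), the 4 calls with Wnt3a (*Klf5* 1.05, *Klf15* −0.83, *Angptl4* −2.30 and *Fgf21* 0.76) and the 2 with Rspo2 (*Klf15* −0.89 and *Angptl4* −1.18). The *Plin4* call with both against Wnt3a (−1.06) and the *Angptl4* interaction call (1.65) also ended with slide as a term, at −0.91 and 1.07. The *Angptl4* interaction rests on Wnt3a arrays not above background and is not a measured size. Under normexp the differences of *Klf15* and *Angptl4* with Rspo2 were 0.27 and 0.30, and that of *Fgf21* with both was −0.04, each of opposite sign and not called.

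**Figure D4:**
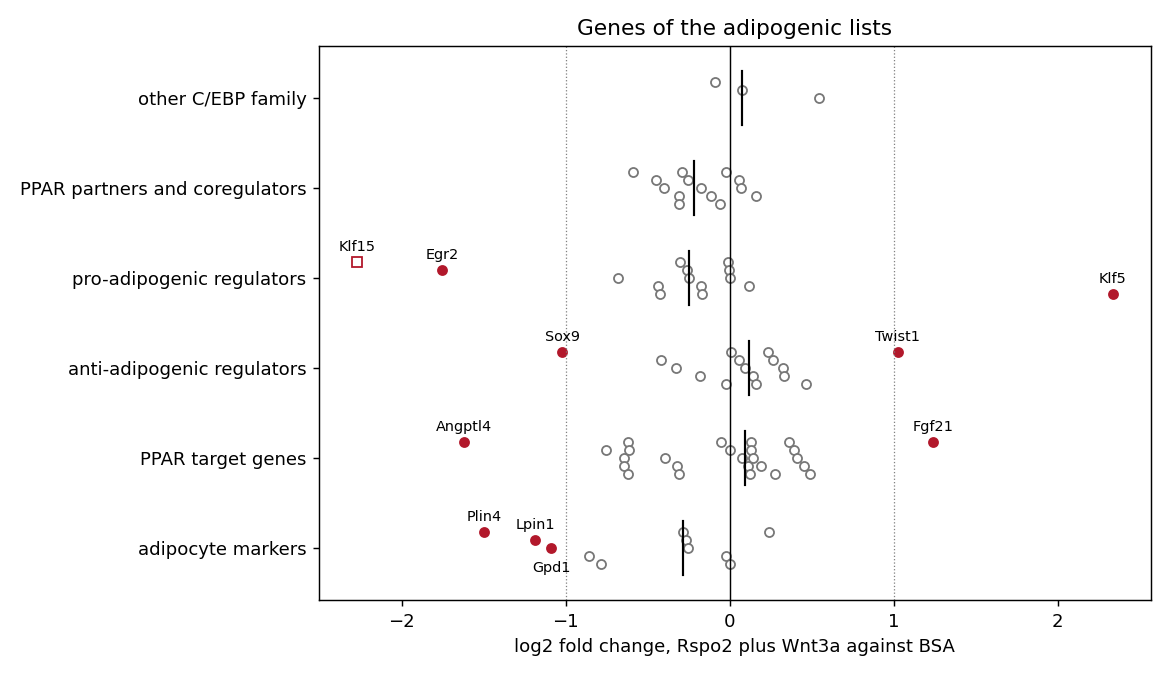
Log2 fold change with Rspo2 plus Wnt3a against BSA (x axis) of every detected gene of the 6 lists (rows), with a point for each gene, filled where called, a line at the list median and an open square for *Klf15*, which was not above background with both proteins, so that its position is not a measured size. *Klf5* lies farthest to the right at 2.34, and the adipocyte genes lie mostly to the left of 0, with a median of −0.29.

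The levels of the genes with a called probe were compared across the 12 arrays with those of all other detected genes, as a description. The 12 arrays fall into 4 treatments and 3 slides, which every gene shares. The *Fabp4* probes correlated with each other at Pearson's r of 0.917 to 0.986, the *Cebpb* probes at 0.922, and *Cebpb* probe 1 with *Cebpd* at 0.957, while *Pparg* had r between −0.079 and 0.35 with the other probes. The genes most like *Cebpd* were *Ifi203* (r = 0.99), *Phip* (0.98) and 9530028C05 (0.98), and those most like *Cebpb* were *Prtg* (0.98), *Bmf* (0.98) and *Rasgrp3* (0.97). *Ppargc1a* was most like *Postn* (0.98), LOC676870 (0.97) and *Atp6v0a4* (0.97), *Fabp4* most like *Duoxa1* (0.98), *Spp1* (0.97) and *Tprn* (0.97), and *Ppard* most like *Cnot3*, *Ercc6l2* and *Itch* (0.94 each).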

How the data were processed

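C57MG RNA was labelled with a single dye and hybridised to 12 Agilent mouse arrays, 3 per condition. The authors deposited scanner output of Agilent Feature Extraction 9.5.3.1, and the values used here were the deposited background-subtracted intensity of each spot and its marks for background, outliers and saturation. The authors also deposited a table of ratio values scaled to the 75th percentile, which was an alternative. The genome build of the array design is not given in the sources used here, and promoter sequences are from RefSeq (GRCm38.p6). Spots of a probe were averaged without outlier spots (1327 of 520548 values), log2 was taken and the array's 75th percentile subtracted. A probe was above background where at least 0.5 of its spots were. Linear models were fitted across all detected probes and arrays (limma 3.58.1, R 4.3.3, moderated with 2.74 prior degrees of freedom), and p was adjusted by Benjamini-Hochberg; intervals are 95%. A probe detected in 1 group only has a difference that the filter partly sets. Where no array of the dimmer group was above background, folds are bounds against the lowest signal above background on each array. A bound is given only where all 3 arrays of the brighter group were above background. The number of arrays limits the precision: p-values measure the spread between the 3 monolayers within a group, pooled over the 4 groups. Slide is not in the main fit, so slide differences that go with treatment are not part of that spread. On simulated data with 22750 probes, 93% of 2.5-fold and 97% of 4-fold changes were recovered for the combination against BSA, and 76% and 90% for the interaction.

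Genes were named from the arrays' symbols, and 22951 of 34709 named probes were matched by accession to RefSeq. All probes of the 10 genes, every list gene called in at least 1 comparison (brightest detected probe per gene) and the 3 genes most correlated with each called gene are named. The members, lists and tests were chosen with earlier results of these data known. Replicate numbers did not pair the samples, with same-number correlations of −0.413 to 0.272 over 18 pairs of groups and numbers. Alternatives varied the background correction, scaling, filter, test, slide, block, fold limit and replicates.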

Additional observations from a re-analysis of the deposited data

Results flagged for a closer look

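The effect of Rspo2 differed with and without Wnt3a for *Fabp4*, by the interaction in limma. The difference between the effects was −1.28 on probe 1 (Rspo2 effect 0.41 without Wnt3a and −0.87 with it, adjusted p = 0.00386), −1.22 on probe 2 (0.32 and −0.89, adjusted p = 0.00205) and −1.67 on probe 3 (0.74 and −0.93, adjusted p = 0.0103). Slide as a term ended these 3 calls (adjusted p = 0.0766, 0.0664 and 0.106, limma), and so did normexp. For *Ppard* the fit gave 1.96 (−0.64 and 1.32, adjusted p = 0.027), but this value is no measured size: the probe was tested only because the combination arrays passed the background score, no Wnt3a array did, and with normexp the value was −0.52. The 3 *Fabp4* probes read the same gene on the same arrays and are not independent.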

How the results depend on the processing

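The number of the 9 probes called in the 5 comparisons (Rspo2, Wnt3a and both against BSA, both against Wnt3a, and the interaction) was 0, 1, 3, 1 and 4, and of the 85 list genes 2, 4, 10, 3 and 3. Normexp gave 0, 0, 1, 0 and 0 probes and 0, 1, 5, 1 and 0 list genes, and turned the *Ppard* interaction to −0.52. It moved the median of all detected probes to between −0.16 and 0.15, and the 75th percentile over probes above background on all arrays to between −0.12 and 0.11. Slide as a term gave 0, 0, 3, 0 and 0 probes, of which the 3 were *Cebpd* and *Fabp4* probes 1 and 2, and 0, 0, 5, 2 and 1 list genes. The shares of all probes called under these settings are not given here. The counts therefore do not show whether these genes lost calls more often than other probes. The call of *Ppard* with Wnt3a went to 0 under quantile normalization, without a filter, with the authors' table, with the methods' t-test (adjusted or not), with only the arrays compared and with slide as a random block. With only probes above background on all 12 arrays *Ppard* was not in the test, so that 0, 0, 3, 0 and 3 probes were called by construction of that filter. The call of *Ppard* with both against Wnt3a went to 0 under the same settings except quantile normalization, and under an intensity trend; without a filter the interaction called 2. Quantile normalization left 1 list gene called with Rspo2. With no fold requirement the counts were 2, 4, 7 and 5 for the direct comparisons.

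Leaving out each replicate gave 0 to 1 probes for Wnt3a, 2 to 3 for both against BSA, 0 to 2 for both against Wnt3a and 3 to 5 for the interaction; *Ppard* lost its call with Wnt3a without BSA replicate 1, Wnt3a replicate 1 or Wnt3a replicate 2, its call with both against Wnt3a without any of 9 of the 12 arrays (0.99 to 1.46, adjusted p of 0.0532 to 0.141) and its interaction call without any of 7. A replicate block called the same number of the 9 probes in each comparison (0, 1, 3, 1 and 4) and 324 of all probes in the interaction, where 438 were called without it. Of 1138 values of single probes under other settings, 1041 kept their direction and side of the threshold, 34 changed sign without being called, 55 lost a call and 7 gained 1. The cause was not tested. Dim probes limit *Ppard*, *Ppargc1a*, *Pparg* and *Fabp4* probe 3.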

Other observations

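Markers of cell types also differed between conditions, but their values were not refitted with slide as a term or with normexp. *Krt14*, a basal keratin, had a mean level of 3.35 ± 0.04 (SD, n = 3) with BSA, 3.41 ± 0.18 after Rspo2, 4.01 ± 0.09 after Wnt3a and 4.59 ± 0.10 after both. It was called higher with both against BSA (1.24, adjusted p = 8.28e-06, limma). *Krt8*, a luminal keratin, had means of −3.51, −3.75, −4.20 and −4.66 in the same order, with a called difference of −1.15 between both and BSA. *Krt5* was above background on 1 Rspo2 array and on all 9 others, and its interaction was 1.63 (adjusted p = 0.0075). This rests on lower levels with each protein alone, −0.84 with Rspo2 (adjusted p = 0.0212) and −0.57 with Wnt3a (adjusted p = 0.0405), each under 2-fold. The mean *Krt5* level was −4.21 with BSA and −3.99 with both. *Pdgfra*, a receptor of mesenchymal cells and fat precursors, had means of 1.26, 0.70, 0.45 and −0.11 and was called lower with both against BSA at −1.37 (adjusted p = 8.77e-06). Of 7 endothelial markers only *Cdh5* was detected. It differed by −0.41 (adjusted p = 0.0116) with Rspo2, −0.49 (adjusted p = 0.00131) with Wnt3a and −0.55 (adjusted p = 0.000259) with both, each under 2-fold.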
